A study of Mus musculus with 4 samples.

Results

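Genes for the classic axon guidance cues and their receptors were examined in the adult prelimbic cortex of male mice. The set holds the semaphorins of classes 3 to 7 with their plexin and neuropilin receptors, the ephrins with the Eph receptors, Slit with Robo, and the netrins with Dcc and the Unc5 receptors. Genes were taken by symbol from probe sets annotated to a single gene, which gave 69 of the 18193 genes tested. They comprised 20 semaphorins, 9 plexins, 2 neuropilins, 8 ephrins, 13 Eph receptors, 3 Slits, 4 Robo receptors, 4 netrins and 5 netrin receptors, plus Plxna4os1, a noncoding RNA whose symbol marks it as the opposite strand of Plxna4 and which is not a plexin. The other 68 code for proteins.

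Guidance cues are secreted or membrane-bound proteins that attract or repel growing axons by steering the actin cytoskeleton of the growth cone. Class 3 semaphorins are secreted and mostly act through a neuropilin bound to a class A plexin, while the membrane-bound classes bind plexins directly. Ephrins and Eph receptors both sit in membranes and signal in both cells at a contact, Slits repel through Robo, and netrin attracts through Dcc and repels when an Unc5 receptor takes part. In the adult cortex many of these genes stay expressed, in neurons, where they act at dendritic spines and synapses, and also in vessels and glia.

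One group of mice had been exposed to fluoxetine, a selective serotonin reuptake inhibitor, before birth, and the other was untreated, and both were sampled on postnatal day 90. Total RNA from punches taken of this cortex was labelled and hybridised to Affymetrix 3' expression arrays, 2 per group. The sources used here name no strain, dose or days of exposure. The design text speaks of biological duplicates, without saying if a hybridisation used 1 animal or several, or if litters differed, so the p-values cover no more than the spread among these 4 arrays. In bulk tissue, fewer cells of a type and less RNA per cell cannot be told apart.

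The 4 arrays had median log2 intensities of 6.44 to 6.50 and correlated at 0.996 to 0.997. Markers of cortical excitatory neurons were present on all arrays, with Camk2a at 13.89 to 13.95, and 1 of 7 was higher with fluoxetine at an unadjusted p below 0.05 (Neurod6, 0.24). Untreated replicate 2 stood apart in markers of striatum and myelin. The mean log2 intensity of 14 striatal neuron markers was 9.72 there and 8.71 to 8.95 elsewhere, with 0 of them higher and 1 lower with fluoxetine at an unadjusted p below 0.05. That of 14 myelin markers was 10.79 there and 10.51 on each other array, with 0 higher and 4 lower. Upward, 3 of 12 astrocyte markers (Gjb6, Slc1a3 and Slc1a2) and 3 of 9 meningeal fibroblast markers (Col1a2, Dcn and Slc6a20a) passed an unadjusted p of 0.05, and 0 of either did downward. Over all genes tested, 3.45% passed upward and 3.51% downward, and among those above the median level 5.73% and 2.17%. The 24 probe sets for poly-A RNAs, which are spiked in as labelling controls, were all higher with fluoxetine (median log2 difference 0.24). The part of any of these in the values below was not tested beyond leaving out untreated replicate 2.

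No guidance gene differed between the groups after correction for all genes tested, and the share past the uncorrected threshold was close to that of all genes. With limma, 0 of the 69 genes had an adjusted p below 0.05, as did 0% of all genes, and their lowest adjusted p was 0.696. At an unadjusted p below 0.05, 1 was higher with fluoxetine and 4 were lower, together 7.25% of the set against 6.96% of all genes tested (3.45% higher, 3.51% lower). The gene that was higher was Sema3g, and the lower ones were Sema3e, Sema6d, Efna1 and Epha8. Their differences below are on the log2 scale, with the moderated standard error (SE) of limma. By the brightest probe set of each gene, none of the 69 differed as much as 1.5-fold. Dimmer probe sets of Epha4, described below, differed by 1.95-fold and 1.71-fold. The counts changed when an array was left out, and so did the genes counted. Sema3g was among the higher ones only without untreated replicate 2. A fit with an array left out compares 1 array with 2, so its standard errors change too. A lost call thus need not mean a smaller difference. Without fluoxetine replicate 1 there were 0 higher and 1 lower (Robo2), against 0.995% and 1.03% of all genes in that fit. Without untreated replicate 1 there were 1 and 8, against 3.11% and 6.33%. They became 4 and 5 without fluoxetine replicate 2 (3.41% and 2.79%), and 1 and 2 without untreated replicate 2 (5% and 3.57%). After quantile normalization of the deposited values the counts were 1 and 10, against 3.14% and 6.12% of all genes. After subtracting array medians they were 3 and 1, against 4.65% and 2.37%.

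The direction leaned toward lower values with fluoxetine. Of the 69 genes, 47 had a negative difference (68.1%), against 57.5% of all genes, and the median log2 difference was −0.06 against −0.02. Both fluoxetine arrays lay below both untreated arrays for 21 members (30.4%, against 22.3% of all genes) and above them for 8 (11.6%, against 15.5%). Subtracting array medians, which shifts every gene alike, moved the median of all genes from −0.02 to 0.02. It left 39 of 69 negative (56.5%, against 44.3% of all genes). Direction went with level over all genes. Among those above the median level, the unadjusted threshold was passed upward by 5.73% and downward by 2.17%, against 1.18% and 4.85% among the rest. Of the 45 guidance genes above that level 0 were higher and 2 lower, and 31 had a negative difference (68.9%, against 48.1% of all such genes). Of the 24 below it 1 was higher and 2 were lower, and 16 had a negative difference (66.7%), close to the share among all genes below it (66.9%).

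**Figure D1:**
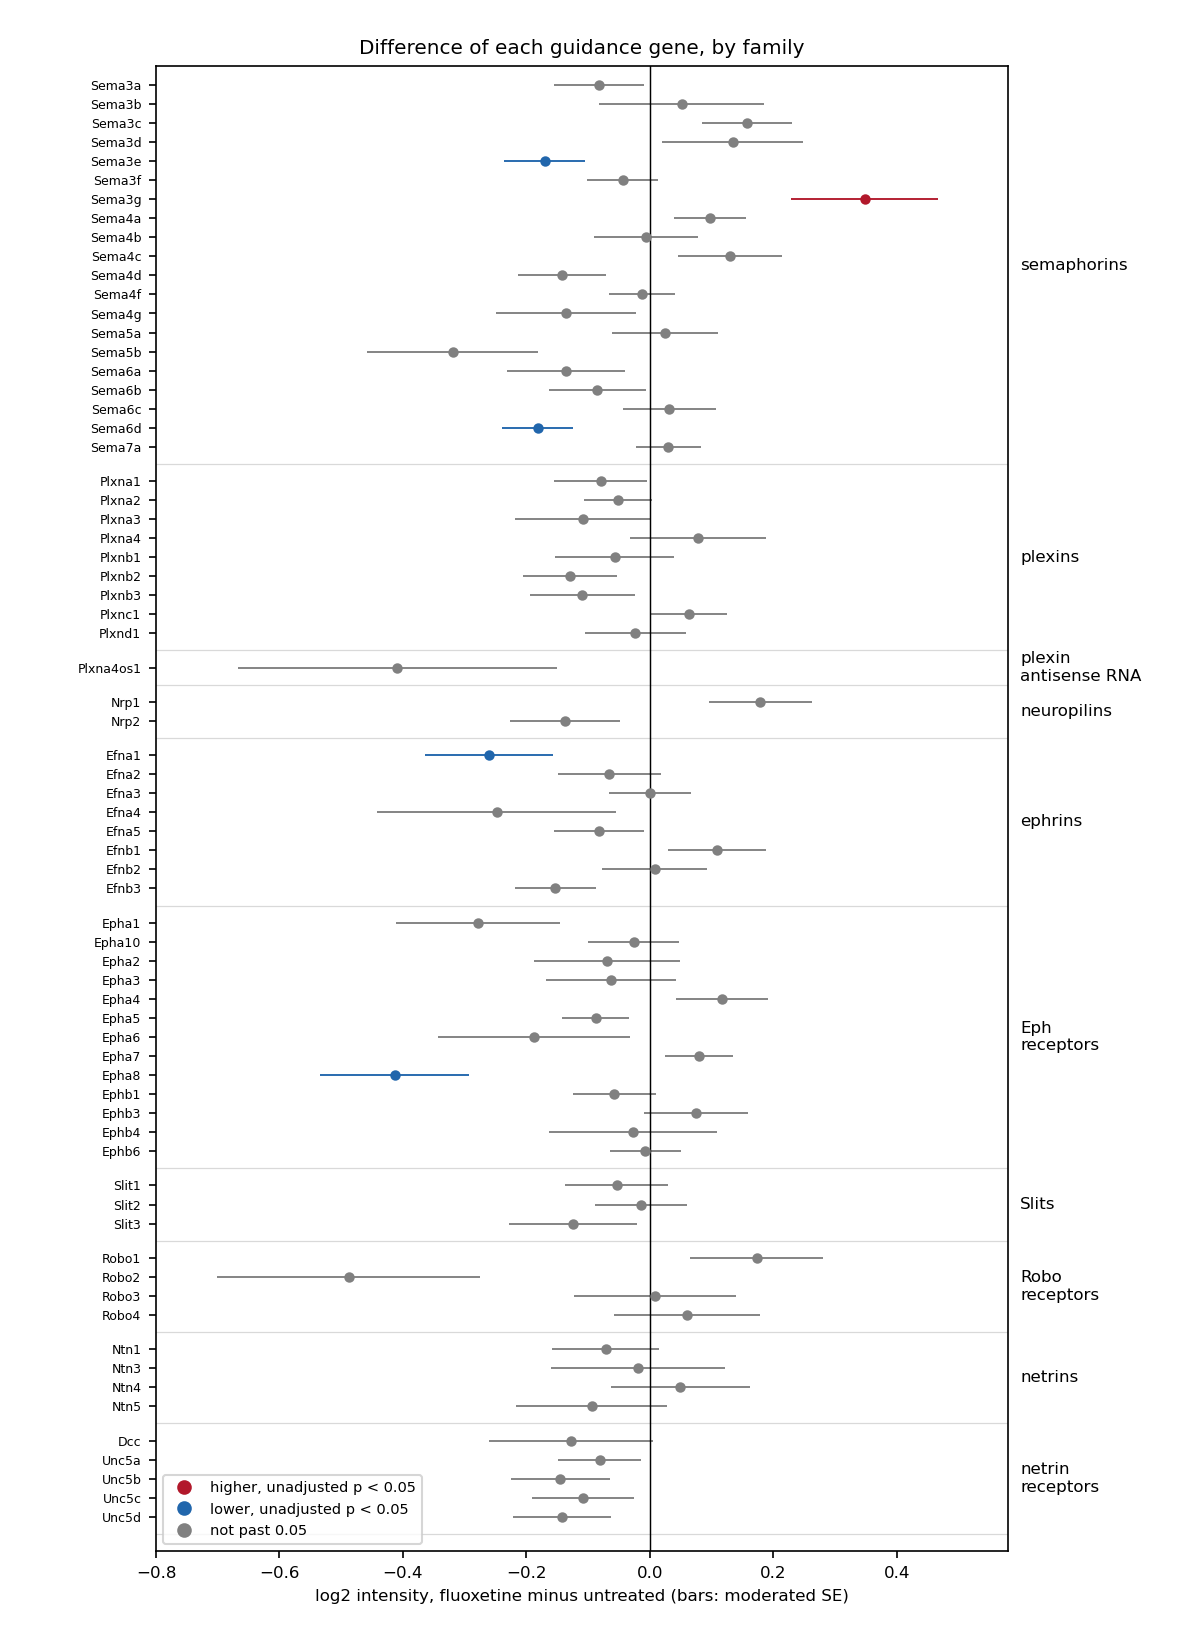
Log2 difference, fluoxetine minus untreated, for each of the 69 genes grouped by family, with the moderated standard error as a bar (2 arrays per group). Coloured points passed an unadjusted p of 0.05, 1 higher (Sema3g) and 4 lower (Sema3e, Sema6d, Efna1, Epha8), and 47 of the 69 points lie left of 0.

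Of the 20 semaphorins, 1 passed an unadjusted p of 0.05 upward and 2 downward, against 3.45% and 3.51% of all genes tested. The other 17 did not pass, and the median log2 difference was −0.01. Sema3g, a secreted class 3 member known for its expression in vessels, read 6.93 and 6.96 on the fluoxetine arrays and 6.49 and 6.71 on the untreated arrays. The groups did not overlap, and the gene was 1.27-fold higher with fluoxetine (log2 difference 0.35, SE 0.12, limma adjusted p = 0.696). Sema3g was among the 24 members below the median level and has a single probe set here, so its difference has no second reading. With an array left out in turn, the Sema3g difference ran from 0.24 without untreated replicate 1 to 0.46 without untreated replicate 2. Its call ended without either fluoxetine array or untreated replicate 1. Sema6d, a transmembrane ligand of plexin A1, read 10.78 and 10.82 with fluoxetine and 10.92 and 11.04 without (difference −0.18, SE 0.06, limma adjusted p = 0.696). Its groups did not overlap either, and the difference no longer passed without untreated replicate 2 (−0.12) or fluoxetine replicate 1 (−0.16). It also failed to pass with array medians subtracted (−0.15), without the intensity trend, as the mean of its probe sets (−0.12) and with the probe set of largest range (−0.21). The 3 dimmer probe sets of Sema6d differed by 0.08, −0.21 and −0.16, and none of them passed.

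Sema3e, which acts directly on plexin D1 without a neuropilin, read 8.99 ± 0.01 with fluoxetine and 9.16 ± 0.04 without (mean ± SD, n = 2 each), with arrays at 9.14 and 9.19 in the untreated group (difference −0.17, SE 0.07). With an array left out in turn its difference ran from −0.20 to −0.14, and its call ended without either fluoxetine array or untreated replicate 2. The negative direction held for that probe set only. The 3 other probe sets of the gene had positive differences of 0.24, 0.19 and 0.32, with untreated replicate 1 the lowest array in each, and the groups overlapped in all but the brightest of the 3, where the nearest arrays both read 8.64. Plxnd1, its receptor, read 8.99 and 9.10 against 8.99 and 9.15, a difference of −0.02 (SE 0.08). The direction for Sema3e thus turned with the probe set, and its receptor gave overlapping groups.

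The other class 3 members went both ways. Sema3c, a secreted cue for cortical axons, read 10.14 and 9.98 with fluoxetine and 9.95 and 9.86 without (difference 0.16, SE 0.07). It did not pass, but its second probe set did, at 0.31 (SE 0.12), and both had groups that did not overlap. Sema3a, the founding repellent of the class, had a difference of −0.08 with overlapping groups, and Sema3f one of −0.04. Sema3d and Sema3b differed by 0.13 and 0.05. Of the 7 class 3 genes 4 had positive differences.

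In the membrane-bound classes the median difference was −0.01 for class 4, −0.15 for the 2 class 5 genes and −0.11 for class 6, which holds Sema6d. Among the 6 class 4 genes the differences ran from −0.14 to 0.13, with Sema4d, a ligand of plexin B1 known from oligodendrocytes, at −0.14 and Sema4a and Sema4c at 0.10 and 0.13. Sema5b, a transmembrane repellent, read 6.57 and 6.89 with fluoxetine and 6.97 and 7.13 without. Its difference of −0.32 (SE 0.14) did not pass and was −0.16 without fluoxetine replicate 1, while its second probe set differed by −0.05. Sema6a and Sema6b differed by −0.14 and −0.09 and Sema6c by 0.03. Sema7a, a GPI-anchored member that binds plexin C1 and integrins, read 10.69 and 10.76 against 10.67 and 10.72, a difference of 0.03 (SE 0.05), and 0.18 (SE 0.08) with its dimmer probe set, where the groups did not overlap.

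None of the 9 plexins passed in either direction, and their differences ran from −0.13 to 0.08 (median −0.06). Of these 7 were negative (77.8%, against 57.5% of all genes). The largest was Plxnb2, a class B receptor of class 4 semaphorins, at 8.72 and 8.81 with fluoxetine and 8.84 and 8.95 without (difference −0.13, SE 0.08). Plxnb3, a receptor of Sema5a, read 8.43 and 8.34 against 8.42 and 8.56 (difference −0.11, SE 0.08), with overlapping groups. Plxnc1 differed by 0.06 and Plxna4 by 0.08, the 2 positive members. Plxna4os1 read 4.62 and 5.42 against 5.30 and 5.56, and its difference of −0.41 (SE 0.26) rested on the low reading in fluoxetine replicate 1, which lay apart from the other arrays.

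The neuropilins, the ligand-binding partners of plexins for class 3 semaphorins, stood on opposite sides of 0 and neither passed. Nrp1 read 10.04 and 9.86 with fluoxetine and 9.85 and 9.70 without (difference 0.18, SE 0.08), with the nearest arrays of the groups almost equal. Its next 2 probe sets by level differed by 0.16 and 0.12, and the dimmest by −0.15. Nrp2 read 7.85 and 7.82 against 7.91 and 8.03 (difference −0.14, SE 0.09), while its other probe sets ran from −0.33 to 0.19. The difference between the 2 genes was not tested.

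**Figure D2:**
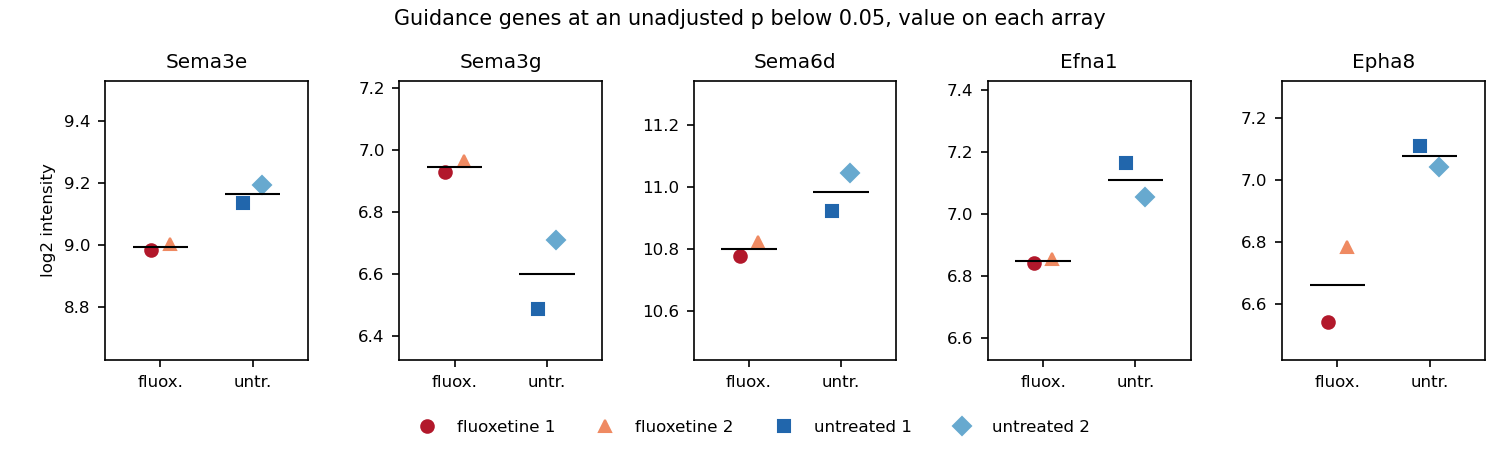
Log2 intensity on each of the 4 arrays for the 5 guidance genes at an unadjusted p below 0.05, with group means as lines and axes of equal span that do not start at 0. Both fluoxetine arrays lie below both untreated arrays for Sema3e, Sema6d, Efna1 and Epha8, and above them for Sema3g.

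Of the 8 ephrins 1 was lower and 0 higher at that threshold (median −0.07), against 3.51% and 3.45% of all genes tested. Efna1, a GPI-anchored ligand of EphA receptors known for its vascular expression, read 6.84 and 6.86 with fluoxetine and 7.16 and 7.06 without. It was 1.20-fold higher in the untreated group (difference −0.26, SE 0.10, limma adjusted p = 0.705). The second Efna1 probe set differed by −0.20 in the same direction (SE 0.13) and did not pass. With an array left out in turn the Efna1 difference ran from −0.31 to −0.21, and its call ended without either fluoxetine array or untreated replicate 1. The other ephrin-A genes had overlapping groups: Efna5 read 9.79 and 9.63 against 9.75 and 9.83, and Efna4, a dim gene, differed by −0.25 (SE 0.19). Efna3 was level at 9.55 and 9.59 against 9.51 and 9.63 (difference 0.00).

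The transmembrane ephrin-B genes did not move together. Efnb3, which is known from neurons and myelinating cells, read 10.15 and 10.29 with fluoxetine and 10.34 and 10.41 without (difference −0.15, SE 0.07) and did not pass. Efnb1 read 8.44 and 8.50 against 8.41 and 8.31 (difference 0.11, SE 0.08). Efnb2 read 10.32 and 10.06 against 10.19 and 10.18, so that the untreated arrays lay inside the range of the fluoxetine arrays.

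The 13 Eph receptors had 10 negative differences (76.9%, against 57.5% of all genes) and a median of −0.06. At an unadjusted p below 0.05, 0 of them were higher and 1 was lower, against 3.45% and 3.51% of all genes tested. Epha8, a receptor of ephrin-A ligands, read 6.54 and 6.78 with fluoxetine and 7.11 and 7.04 without. This was the largest difference among the 5 guidance genes past the threshold, 1.33-fold higher in the untreated group (difference −0.41, SE 0.12, limma adjusted p = 0.696). The groups did not overlap, and the fluoxetine arrays were farther from each other than the untreated ones. It has a single probe set and was among the members below the median level. Without fluoxetine replicate 1 the difference of Epha8 was −0.29 and no longer passed. With all 4 arrays kept, Epha8 and Sema3g passed in every alternative setting that tested them. The mean of the probe sets and the largest range could not change their differences, as each has a single probe set. Efna1 lost its call with array medians subtracted and with the largest range. The largest range kept the same Efna1 probe set and difference (−0.26), with a larger SE of 0.13. Sema6d and Sema3e lost their calls with medians subtracted, with the largest range, without the intensity trend and as the mean of the probe sets.

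Epha1 had a difference of −0.28 (SE 0.13) with 5.68 and 5.85 against 5.99 and 6.09, and did not pass. Its dimmer probe sets differed by −0.08 and 0.28, and neither passed. Epha5, a neuronal receptor, read 10.14 and 10.13 against 10.19 and 10.26 (difference −0.09, SE 0.05), while the second of its 4 probe sets by level passed in the opposite direction, at 0.14 (SE 0.05). Epha7 differed by 0.08, with 10.10 and 10.16 against 10.03 and 10.07, and its 4 probe sets lay between 0.05 and 0.11. The 4 EphB genes ran from −0.06 to 0.07, and none separated the groups. Ephb6, a member whose kinase domain is inactive, read 10.60 and 10.63 against 10.67 and 10.56.

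None of the Slit or Robo genes passed. The 3 Slits, secreted repellents, had differences of −0.05 (Slit1), −0.01 (Slit2) and −0.12 (Slit3). Slit3 read 7.08 and 7.24 against 7.29 and 7.28 (SE 0.10), and Slit1 read 8.61 and 8.72 against 8.65 and 8.79 (SE 0.08). Robo1, a neuronal Slit receptor, read 8.67 and 8.38 with fluoxetine and 8.40 and 8.30 without, so that its difference of 0.17 (SE 0.11) rested on fluoxetine replicate 1. Its dimmer probe sets differed by −0.15 and −0.43, and the second of these passed an unadjusted p of 0.05. Robo2 read 2.09 and 1.65 against 2.45 and 2.27, low on the scale, so its difference of −0.49 (SE 0.21) is one between dim readings. Robo4, the endothelial member, differed by 0.06 with overlapping groups.

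All 5 netrin receptors had negative differences, against 57.5% of all genes and 48.1% of those above the median level, where all 5 lay. None passed, and their median was −0.13 (from −0.15 to −0.08). Unc5b read 7.93 and 7.95 with fluoxetine and 8.07 and 8.11 without (difference −0.15, SE 0.08), and Unc5d read 9.25 and 9.24 against 9.29 and 9.49 (difference −0.14, SE 0.08). Unc5a and Unc5c differed by −0.08 and −0.11, and Dcc by −0.13. For 3 of the 5, Unc5a, Unc5b and Unc5d, both fluoxetine arrays lay below both untreated arrays. The share was 22.3% among all genes and 16.9% among those above the median level. Untreated replicate 2 was the highest array for each receptor, and without it the median was −0.04 with 4 of 5 negative. With the probe set of largest range per gene 2 of 5 were negative, and with the mean of the probe sets 4 of 5 (median −0.05). The 4 netrins ran from −0.09 to 0.05. Ntn1, the ligand that Dcc and the Unc5 receptors share, read 7.86 and 7.86 against 7.87 and 7.98 (difference −0.07, SE 0.09), and its dimmer probe set passed at −0.34 (SE 0.15). Ntn5 read 8.02 and 7.72 against 7.89 and 8.05 (difference −0.09, SE 0.12).

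**Figure D3:**
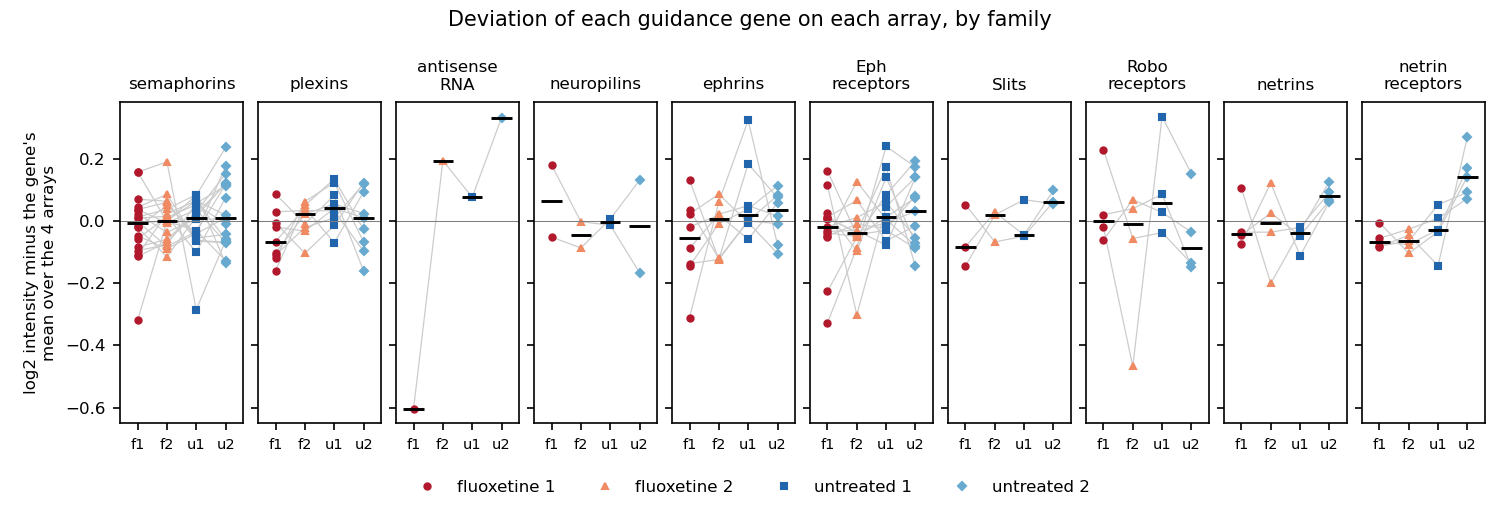
Log2 intensity of each gene minus its own mean over the 4 arrays, by family and array (f1 and f2, fluoxetine replicates 1 and 2; u1 and u2, untreated replicates 1 and 2), with black bars at the family median and grey lines joining 1 gene. Untreated replicate 2 is the highest array for all 5 netrin receptors, and the semaphorins spread to both sides of 0 on every array.

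The differences were of the size of the gaps between arrays of 1 group. The median size of the difference was 0.09 over the 69 genes, while the median gap between arrays was 0.07 in the fluoxetine group and 0.11 in the untreated group. Untreated replicate 2 was the highest array for 32 of the 69 genes (46.4%), against 36.1% of all genes, and fluoxetine replicate 1 for 9 (13.0%), against 24.0%. Without untreated replicate 2, 47 of 69 differences were negative (68.1%), against 49.8% of all genes. They were not the same genes throughout: 41 were negative in both fits and 12 members changed sign.

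The probe sets of a gene read different stretches of its transcripts, and several guidance genes changed their answer with the probe set. With each of the 152 guidance probe sets as its own feature, 8 passed an unadjusted p of 0.05 upward and 6 downward, against 6.4% and 3.04% of all 34945 probe sets, and their lowest limma adjusted p was 0.368. Of the 45 members with more than 1 probe set, the brightest 2 had differences of the same sign in 25 (55.6%), against 59.1% of all such genes. In 12 of the 45 (26.7%, against 29.6% of all such genes) the probe sets of a gene spanned over 0.3. The following 4 genes were chosen after their values were seen.

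Epha4, an EphA receptor that binds both ephrin classes and acts at dendritic spines, showed the widest range. Its brightest probe set, 1429021_at, read 10.70 and 10.49 with fluoxetine and 10.51 and 10.45 without, a difference of 0.12 (SE 0.08) with overlapping groups. Probe set 1439757_s_at read 9.29 and 8.84 against 8.57 and 7.64, a difference of 0.96 (SE 0.28, limma adjusted p = 0.416), and 1456863_at read 7.25 and 6.55 against 6.44 and 5.82, one of 0.77 (SE 0.27). The other 2 differed by 0.20 and 0.54. All 5 were thus positive, and fluoxetine replicate 1 was the highest array in each. The large differences leaned on fluoxetine replicate 1 and on untreated replicate 2, which was the lowest array in 4 of the 5 probe sets. Without untreated replicate 2 the differences of 1439757_s_at and 1456863_at were 0.50 and 0.46, and that of 1421929_at went from 0.54 to 0.12. The suffix of 1439757_s_at marks a probe set that may read more than 1 transcript.

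Dcc, the netrin receptor, gave opposite signs. Its brightest probe set, 1440487_at, read 8.29 and 8.33 against 8.23 and 8.65, a difference of −0.13 (SE 0.13). Probe set 1441572_at read 7.59 and 7.31 against 7.15 and 6.64, a difference of 0.55 (SE 0.18), or 0.30 without untreated replicate 2, and the dimmest one differed by −0.20 with overlapping groups. That array was thus the highest on the brightest Dcc probe set and the lowest on 1441572_at.

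Efnb1, which encodes a transmembrane ephrin, had the smallest p of all guidance probe sets in 1418285_at, at 7.40 and 7.50 with fluoxetine and 7.01 and 7.07 without (difference 0.41, SE 0.10, limma adjusted p = 0.368). The groups were far apart there relative to their spread, while the other 2 probe sets of Efnb1 differed by 0.11 and 0.06. Plxna2, a class A plexin, had differences of −0.05, 0.11, 0.16 and 0.24 from its brightest to its dimmest probe set. The dimmest, 1429772_at, read 8.25 and 8.14 against 7.97 and 7.93 and passed an unadjusted p of 0.05.

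**Figure D4:**
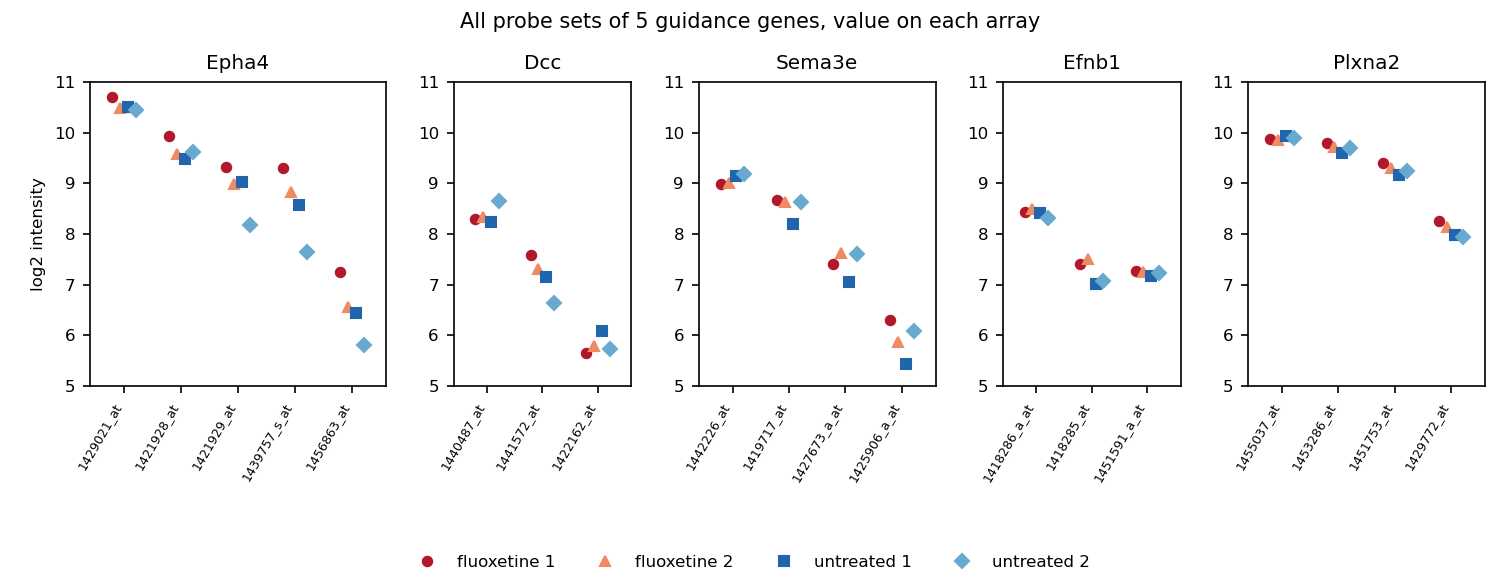
Log2 intensity on each of the 4 arrays for every probe set of Epha4, Dcc, Sema3e, Efnb1 and Plxna2, ordered from the brightest to the dimmest, on an axis that does not start at 0. The Epha4 probe sets 1439757_s_at and 1456863_at spread widely, with untreated replicate 2 lowest, while the brightest one holds all arrays between 10.45 and 10.70.

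Genes that act with these receptors were taken from 5 lists of signalling partners and other cues, of which 123 were measured and 3 listed genes were not analysed here. At an unadjusted p below 0.05, 8 were higher and 3 lower with fluoxetine (8.94%, against 6.96% of all genes tested). The other 112 did not pass, and the median difference was 0.00. Over all genes 3.45% were higher and 3.51% lower, the shares to set beside the count of each list below. No partner gene had a limma adjusted p below 0.696. Most of them, 102, lay above the median level of all genes, where 5.73% of genes were higher and 2.17% lower.

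In the semaphorin and plexin list, 3 of 31 genes were higher and 1, the microglial adaptor gene Tyrobp, was lower (−0.16; named after its value was seen). Limk1 and Limk2, kinases that inactivate the actin-severing protein cofilin, differed by 0.21 (SE 0.07) and 0.16 (SE 0.06). Limk1 read 9.38 and 9.36 against 9.08 and 9.24. Both calls ended without either fluoxetine array or untreated replicate 1, and as the mean of its probe sets Limk2 differed by 0.05. Itgb1, an integrin chain that serves as a Sema7a receptor, differed by 0.17 (SE 0.07), but by −0.03 as the mean of its probe sets, and lost its call without the same arrays. In the Eph and ephrin list 2 of 25 were higher and 0 lower. Chn1, a Rac-inactivating protein that acts downstream of Epha4, read 13.31 and 13.28 against 13.22 and 13.13 (difference 0.12, SE 0.04), and Rasa1, a Ras-inactivating protein that binds Eph receptors, differed by 0.13 (SE 0.05). With an array left out in turn, Chn1 passed in 2 of 4 fits, failing without fluoxetine replicate 1 (0.11) and untreated replicate 2 (0.08), and Rasa1 in 1 of 4, without untreated replicate 2 (0.16).

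In the Slit and Robo list 1 of 18 was higher and 2 were lower. Nell2, a secreted ligand of Robo3, read 11.40 and 11.45 with fluoxetine and 11.64 and 11.62 without, a difference of −0.20 (SE 0.04, limma adjusted p = 0.696), with small gaps inside both groups. It passed with each array left out in turn, but not as the mean of its probe sets (−0.11). Flrt3, a membrane protein that binds Unc5 receptors and Robo1, read 9.27 and 9.26 against 9.42 and 9.61 (difference −0.25, SE 0.08), which passed with untreated replicate 1 left out but not without any other array. Sos2, a Ras activator recruited by Robo, differed by 0.29 (SE 0.09), with fluoxetine replicate 1 highest, and did not pass without that array (0.18). In the netrin list 2 of 23 were higher and 0 lower: Siah2, a ubiquitin ligase of the family that acts on Dcc, by 0.21 (SE 0.08), a call that ended without either fluoxetine array or untreated replicate 1, and Lrrc4c, the netrin-G1 ligand, by 0.20 (SE 0.08), or 0.08 without fluoxetine replicate 1. Of the arrays, only leaving out fluoxetine replicate 2 kept the Lrrc4c call. Of the 26 other cues and receptors, such as Nogo, Wnt and Hedgehog components, 0 passed in either direction.

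Guidance genes known from cells other than neurons were set beside the markers of those cells. The 8 members known from endothelium had a median difference of −0.01, with 4 negative. At an unadjusted p below 0.05, 1 was higher (Sema3g) and 1 lower (Efna1), against 3.45% and 3.51% of all genes tested. Of 11 endothelial markers 0 were higher and 0 lower, and their mean log2 intensity was 7.99 and 8.03 with fluoxetine and 7.95 and 8.06 without. The 5 members known from the oligodendrocyte lineage, Sema4d, Plxnb3, Sema6a, Sema5a and Efnb3, had a median of −0.14 with 4 negative and 0 past the threshold. Their mean log2 intensity was 8.66 on both fluoxetine arrays, 8.71 in untreated replicate 1 and 8.82 in untreated replicate 2, the array in which the myelin markers were also highest. Its part in their lean was not tested.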

How the data were processed

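The deposited table gives log2 intensities. The tools named for making them are RMA, affy and limma, per the submitters' processing notes, and their range shows base 2. Versions, details of the background step and a genome build are not given in the sources used here. Of its 45101 probe sets, 64 were array controls, 932 carried several gene symbols in the platform annotation, and 34945 carried 1 and were tested. The brightest probe set on average stood for each of 18193 genes, with no filter on low values. All 69 members matched a RefSeq gene of GRCm38.p6 by Entrez number.

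Groups came from the treatment label, and replicates were numbered by order. The groups were compared with limma 3.58.1 in R 4.3.3 (lmFit and trended eBayes, in two-sided tests). The p-values were adjusted over all genes by the method of Benjamini and Hochberg, and thresholds were 0.05. The fit had 2 residual and 5.15 prior degrees of freedom. By exact permutation, the smallest two-sided p that these groups allow is 0.333. The code was tested on simulated data. The number of arrays limits the precision.

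The genes named were members past an unadjusted p of 0.05 or 1.5-fold, up to 2 further members per family by smallest p, up to 3 passing partners per list by smallest p, members whose probe sets differ by over 0.3 in opposite directions (0 found), and other members as examples of their family, chosen after their values were seen. Members and lists were chosen with earlier results of these data known, and no list was tested. The alternatives tried are in the closing section.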

Additional observations from a re-analysis of the deposited data

How the results depend on the processing

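The alternatives were another quantile normalization, subtraction of array medians, no intensity trend, the mean of a gene's probe sets or the one with the largest range, genes above the median level only, and leaving out each array. No paired analysis was possible because the labels give no replicate numbers that the groups share. The 1266 genes at an unadjusted p below 0.05 became 731 above the median level and 369 to 1716 with an array left out, while no guidance gene passed the adjusted threshold of limma in any setting. The 1 guidance gene that was higher became 3 with medians subtracted (4.65% of all genes) and 4 with the mean of probe sets (4.58%). It became 5 with the largest range (6.55%) and 0 above the median level (5.75%). The 4 lower ones became 10 after quantile normalization (6.12% of all genes) and 1 with medians subtracted (2.37%). They became 1 with the largest range (3.16%) and 2 above the median level (2.29%). Negative differences numbered 31 of 45 above the median level, and the median of −0.06 became −0.0891 after quantile normalization, −0.0213 with medians subtracted and −0.0856 with the largest range. Among all genes 572 were higher and 1113 lower after quantile normalization, and 846 and 431 with medians subtracted. In all, 12 of the 69 members changed sign with the mean of probe sets, 13 with the largest range, 6 after quantile normalization, 8 with medians subtracted and 6 to 12 with an array left out. With the mean of probe sets these included Sema6c (−0.14), Sema3b (−0.0252), Efnb2 (−0.0597), Sema3e (0.15), Epha5 (0.0719), Robo1 (−0.14), Dcc (0.0751) and Plxna2 (0.11), and the partner Itgb1 turned too (−0.0254). With the largest range they turned for Sema3e (0.32), Nrp1 (−0.15), Epha5 (0.16), Robo1 (−0.43), Unc5b (0.0666), Dcc (0.55), Plxna2 (0.24), Itgb1 (−0.29) and Limk2 (−0.17). With an array left out they ran from −0.125 to 0.0178 for Slit1, −0.25 to 0.0587 for Ntn5, −0.34 to 0.0793 for Dcc, −0.0050 to 0.65 for Sema3e probe set 1425906_a_at and −0.0801 to 0.46 for 1427673_a_at. The causes were not tested. The 2 arrays per group limit every p, and no second probe set reads Sema3g or Epha8.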
